A study of Mus musculus with 3 samples.

Results

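A set of 6 genes of killer lymphocytes were followed in mouse liver and spleen RNA: the granule proteases Gzma and Gzmb, the pore-forming protein Prf1, the surface receptors Klrd1 and Klrk1, and the granule membrane protein Nkg7. They were found by their symbol in the platform annotation, which gave 10 of the 16281 probes on the array. The data are 3 arrays that each compared the same pair of commercial total RNAs (Clontech), mouse spleen in Cyanine-3 (green) and mouse liver in Cyanine-5 (red), after 1 round of cRNA amplification. The labels give no strain, sex, age, number of animals or RNA lot, so the 3 arrays were taken as repeats of 1 pair of RNAs. Their spread may be technical, and the p-values measure that spread only. The dyes were never exchanged, so for any probe an effect of the dye and one of the tissue cannot be told apart.

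Natural killer (NK) cells and cytotoxic T cells kill target cells by releasing granules. Perforin, the product of Prf1, opens the target membrane and lets granzymes enter, and the granzymes cleave proteins that lead to cell death. Klrd1 encodes CD94, which pairs with NKG2 receptors encoded by the Klrc genes and reads the class I molecule Qa-1 (H2-T23). Klrk1 encodes NKG2D, an activating receptor for stress-induced ligands such as those of the Raet1 and Ulbp families, which signals through the adaptors DAP10 (Hcst) and DAP12 (Tyrobp). Spleen and liver both hold NK cells and T cells.

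Each value below is the deposited log2 ratio of the channels, with an SD over n = 3 arrays. It was read as liver over spleen, so a value below 0 means a higher signal from the spleen RNA. The labels do not state this direction. It is likely because the median over probes of a set of liver genes (7 genes with a probe) read 5.18, 5.07 and 4.83 on arrays 1, 2 and 3, and that of a set of spleen genes (7 genes with a probe) -1.69, -1.48 and -1.28. The first set held hepatocyte genes such as Mbl2 and Otc, and the second leukocyte genes such as Btk and Cd74. Their opposite sides on every array bear out 1 hepatocyte-rich and 1 leukocyte-rich RNA. Since the direction was read from these sets, they cannot also show which channel held which tissue. An exact 0 was taken as no measurement. Only ratios were used here, so the level of a gene in either tissue is not known. In whole tissue, fewer cells of a type and less RNA per cell cannot be told apart.

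Of the 9 member probes measured on all 3 arrays, 8 passed the test toward spleen and none toward liver. They covered Gzma, Gzmb, Prf1, Klrd1 and Klrk1, each with at least 1 probe past the test. The test was limma's, run over all 14122 probes with a value on every array, with two-sided p-values and Benjamini-Hochberg adjustment, and a probe passed at an adjusted p under 0.05. Over all 14122 probes, 50.2% passed, 26.7% toward spleen and 23.5% toward liver. All 9 member probes read below 0 on every array, as did 35.9% of all probes. The median of the 9 was -0.83, against 0.02 over all probes tested. Over all probes, 25.1% passed toward spleen when 2 arrays sufficed, 27.8% with each array centred on its median, 26.8% with the arrays brought to 1 spread and 26.5% with robust variances, and the same 8 member calls stood in each. Tested against a 2-fold difference, 2 of the 9 member probes and 4.33% of all probes passed. At 2-fold or more toward spleen there were 2 of the 9 member probes, against 9.15% of all probes. The SD of a member probe lay between 0.13 and 0.47 with a median of 0.18, against a median of 0.16 over all probes.

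**Figure D1:**
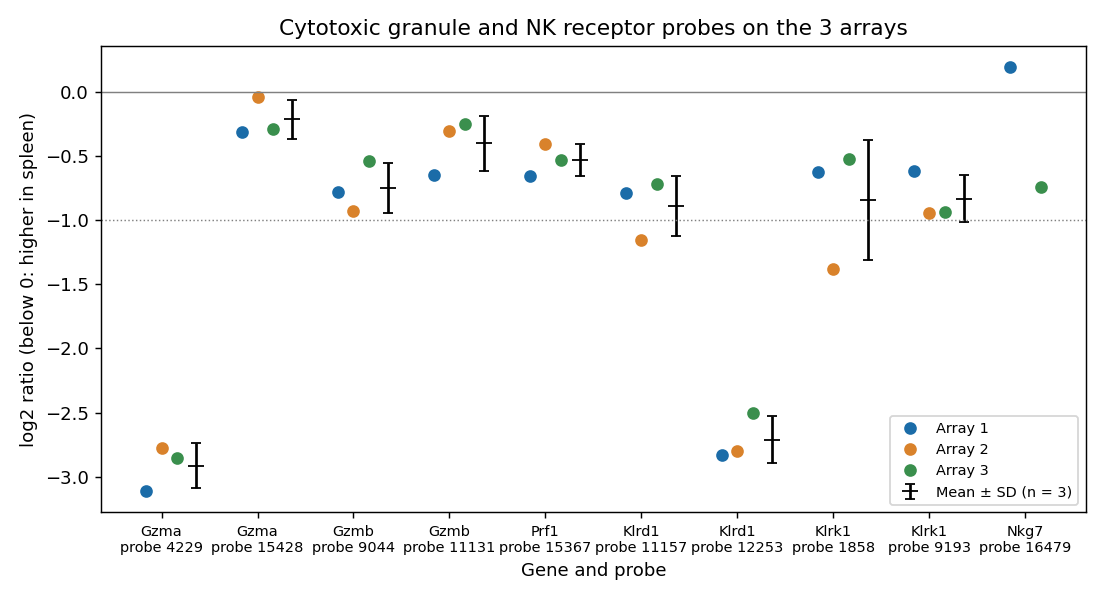
Log2 ratio of each member probe on each array (coloured points), with the mean ± SD of the 3 arrays in black; values below 0 are higher in spleen and the dotted line marks 2-fold. Gzma probe 4229 and Klrd1 probe 12253 lie between -3.11 and -2.50, the other 7 probes with 3 values lie between -1.38 and -0.04, and Nkg7 has 2 values on opposite sides of 0.

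Granzyme A, a trypsin-like granule protease, had 2 probes that differed widely. Gzma probe 4229 read -3.11, -2.78 and -2.85 on arrays 1, 2 and 3. This was a mean of -2.91 ± 0.18, or a 7.54-fold higher signal in spleen, with a 95% interval of -3.16 to -2.66 and an adjusted p of 2.33e-05. It stood at rank 47 of 14122 probes, counted from the most spleen-directed. Gzma probe 15428 read -0.32, -0.04 and -0.29, a mean of -0.21 ± 0.15. This probe did not pass the test (adjusted p = 0.111), and its 95% interval ran from -0.45 to 0.02. The ranges of the 2 probes did not overlap. Probe 15428 is the one annotated with Gzma's RefSeq transcript, and probe 4229 carries another GenBank record.

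Granzyme B cleaves caspases and their targets and is the other main granzyme of killer cells. Gzmb probe 9044 read -0.78, -0.93 and -0.54, a mean of -0.75 ± 0.20 or 1.68-fold higher in spleen (adjusted p = 0.00247). Gzmb probe 11131 read -0.65, -0.31 and -0.25, a mean of -0.40 ± 0.21 or 1.32-fold higher in spleen. It passed with an adjusted p of 0.0277. That call was lost without array 1 (mean -0.28, adjusted p = 0.119) and without array 2 (mean -0.45, adjusted p = 0.0716). It was also lost when an exact 0 was kept as a ratio of 0 (adjusted p = 0.0757), although this probe itself had no exact 0. The ranges of the 2 Gzmb probes overlapped, with array 1 lowest on probe 11131 and array 2 lowest on probe 9044.

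Perforin was measured by 1 probe. Prf1 probe 15367 read -0.66, -0.41 and -0.53, a mean of -0.53 ± 0.13 or 1.45-fold higher in spleen, with a 95% interval of -0.76 to -0.31 (adjusted p = 0.00499). Of the 9 member probes it had the smallest SD. All 3 arrays lay on the spleen side and under 2-fold.

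Nkg7, a membrane protein of cytotoxic granules, could not be placed. Its probe 16479 read 0.19 on array 1, had no value on array 2 and read -0.74 on array 3. The 2 values had opposite signs, and the probe did not enter the test. Another probe annotated with Nkg7 together with a second gene was not used as a member.

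CD94, the shared chain of the CD94/NKG2 receptors, also had 2 unequal probes. Klrd1 probe 12253 read -2.83, -2.80 and -2.50, a mean of -2.71 ± 0.18 or 6.55-fold higher in spleen. Its 95% interval was -2.97 to -2.46 and its adjusted p 2.74e-05, and it stood at rank 73 of 14122. Klrd1 probe 11157 read -0.79, -1.16 and -0.72, a mean of -0.89 ± 0.23 or 1.85-fold higher in spleen (adjusted p = 0.00176). Both probes passed, and their ranges did not overlap. Here the probe annotated with the RefSeq transcript, 12253, was the one with the larger ratio, the reverse of Gzma.

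NKG2D was higher in spleen on both of its probes. Klrk1 probe 1858 read -0.62, -1.38 and -0.52, a mean of -0.84 ± 0.47 or 1.79-fold (adjusted p = 0.0134). Array 2 stood well below the other arrays on this probe, and without it the mean was -0.57, still past the test. With an exact 0 kept as a ratio of 0, which left 6 member calls and 18.6% of all probes toward spleen, it did not pass (adjusted p = 0.0790). Probe 1858 itself had no exact 0, and its mean was unchanged. Klrk1 probe 9193 read -0.62, -0.95 and -0.93, a mean of -0.83 ± 0.18 or 1.78-fold (adjusted p = 0.00147). The probes carry the same GenBank record and their ranges overlapped.

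Ordered by their mean ratio, the member probes ran from Gzma 4229 and Klrd1 12253 to Klrd1 11157, Klrk1 1858, Klrk1 9193, Gzmb 9044, Prf1 15367, Gzmb 11131 and Gzma 15428. Of the 8 steps between neighbours in this order, the ranges over the 3 arrays were separate only between the 2 Klrd1 probes. By these ranges the first pair of probes could not be ordered, nor could the last 7 in their neighbouring steps. Read array by array, Gzmb 9044 lay below Prf1 15367, and Prf1 15367 below Gzmb 11131, on all 3 arrays, in places narrowly. In the other overlapping steps the order changed between arrays. These paired differences between genes were not tested. The ratios are differences between tissues, and their size says nothing about which gene had the higher level.

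**Figure D2:**
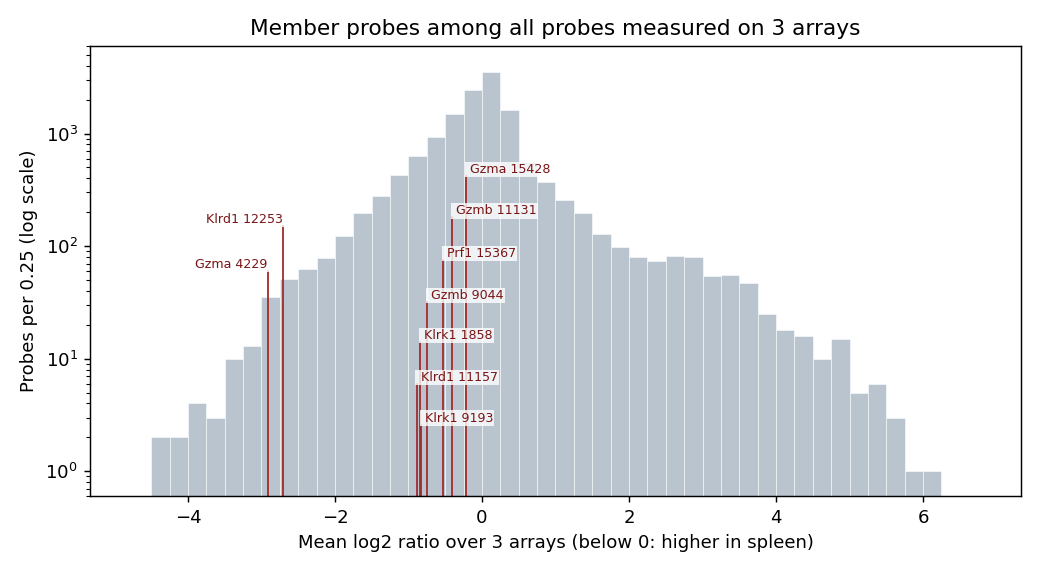
Number of probes by mean log2 ratio over 3 arrays for the 14122 probes measured on all of them (log scale), with the 9 member probes as red lines whose height only separates the labels. Gzma 4229 and Klrd1 12253 stand in the spleen-side tail, and the other 7 lie between -0.89 and -0.21.

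The disagreement between probes was tested on the difference between the 2 probes of each gene, over the 2052 genes with exactly 2 probes measured on all arrays. By limma, 35.8% of these pairs differed at an adjusted p under 0.05, and the median absolute difference was 0.32. The Gzma probes differed by 2.70 (95% interval 2.41 to 2.99, SD 0.12, adjusted p = 9.72e-05), and a difference as large was seen in 1.95% of the pairs. The Klrd1 probes differed by 1.82 (1.50 to 2.14, SD 0.20, adjusted p = 0.000411), a size reached by 4.58% of the pairs. Both differences were in the same direction on all 3 arrays. The Gzmb difference of 0.35 also had the same direction on all 3 arrays but did not pass (adjusted p = 0.109). Its 95% interval, not adjusted for the number of pairs, was 0.002 to 0.69. The Klrk1 difference was 0.01 (adjusted p = 0.979), and its interval of -0.44 to 0.46 leaves room for unequal probes.

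**Figure D3:**
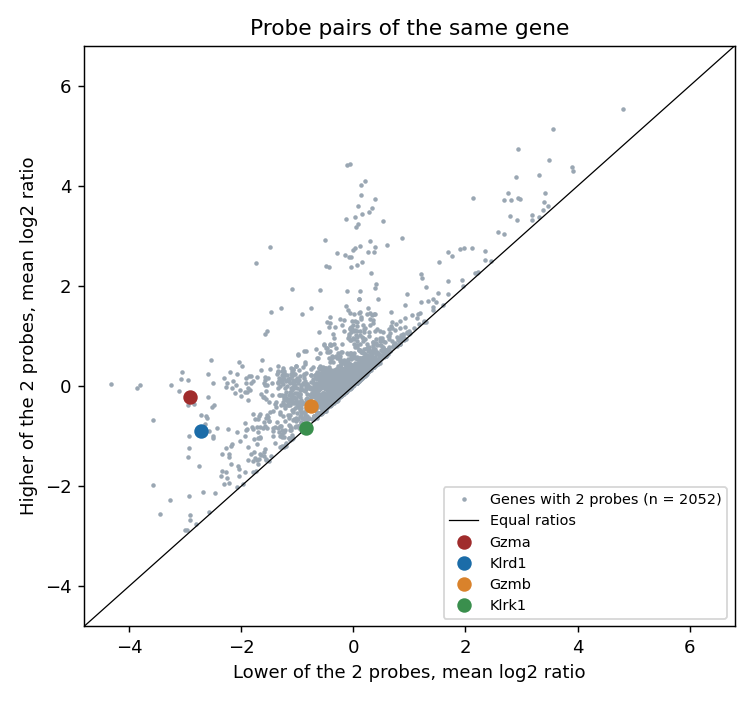
Mean log2 ratio of the lower against the higher probe for the 2052 genes with 2 probes measured on 3 arrays; the line marks equal ratios. Gzma and Klrd1 lie 2.70 and 1.82 away from the line, while Gzmb and Klrk1 lie 0.35 and 0.01 from it.

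With the probes of a gene averaged before the test, all 5 measured member genes passed toward spleen, against 27.4% of 9803 genes. The averages were -1.56 for Gzma and -1.80 for Klrd1, values that no single probe of either gene gave.

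The window before the start site is shown for the granzymes, the members whose start site in the RefSeq promoter table is also the outer end of the gene (Nkg7 shares this but was not tested). Sequences are 5′ to 3′ from RefSeq, build GRCm38.p6, with the 250 bases before the start site on the minus strand, chr13:113100982-113101231 for Gzma and chr14:56262335-56262584 for Gzmb. Capitals mark the Runx core TGTGGT and, in Gzmb, the AP-1 site TGAGTCA, on either strand.
Gzma: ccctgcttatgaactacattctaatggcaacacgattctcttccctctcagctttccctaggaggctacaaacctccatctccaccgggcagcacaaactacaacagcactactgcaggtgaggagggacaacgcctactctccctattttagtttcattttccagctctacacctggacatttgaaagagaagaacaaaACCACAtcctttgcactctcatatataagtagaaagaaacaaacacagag
Gzmb: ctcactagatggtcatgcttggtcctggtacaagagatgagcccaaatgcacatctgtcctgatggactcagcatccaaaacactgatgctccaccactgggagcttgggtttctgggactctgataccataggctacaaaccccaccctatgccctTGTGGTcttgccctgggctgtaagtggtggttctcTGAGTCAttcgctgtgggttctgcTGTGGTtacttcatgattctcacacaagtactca

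Runx proteins, AP-1, T-box factors and Ets factors are known regulators in cytotoxic lymphocytes, and their core letters were searched on both strands. The table held promoters of 5 members, all but Klrd1. The Runx core was found in 5 of the 5 windows, against 14% of the 32851 windows in the table. The Gzma match begins 50 bases before the start site, and the Gzmb matches begin 93 and 34 bases before it. The AP-1 site was found in 1 of the 5 windows (Gzmb), against 4.46% of all. The T-box core GGTGTGA was in 1 (Nkg7), against 3.33%. The Ets core GGAAGT was in 1 (Prf1), against 19.7%. No match of one motif overlapped another's in the sequences shown. These are matches of letters only.

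The chromosomal neighbours of the members did not share one direction. Klrd1 and Klrk1 lie side by side in the NK gene complex. Next to them, Klrc3, at -1.06 ± 0.14, and Klrc1, at -1.29 ± 0.21, passed toward spleen (adjusted p = 0.000416 and 0.000349). Both encode NKG2 chains that pair with CD94. Klrc2 between them read 0.28 ± 0.10 and passed toward liver with an adjusted p of 0.0393. That call was lost whichever array was left out (adjusted p = 0.0729 to 0.154). Whether the probes of these Klrc genes share signal was not resolved. On the other side lie Gabarapl1, an autophagy gene, at 2.72 ± 0.11 toward liver, and Olr1, a lipoprotein receptor gene, at -0.06 ± 0.19. Beyond them, both probes of Clec7a, the myeloid receptor dectin-1, passed toward spleen, at -1.31 ± 0.59 and -1.77 ± 0.16.

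Gzmb lies in a cluster with other granzymes. Its neighbours Gzmc, Gzmf and Gzmg read 0.31 ± 0.16, 0.30 ± 0.10 and 0.37 ± 0.20, higher in liver, and their adjusted p-values were 0.0423, 0.0327 and 0.0337. The Gzmf call was lost whichever array was left out (adjusted p = 0.0619 to 0.128), that of Gzmc without array 1 or 3 (adjusted p = 0.150 for both), and that of Gzmg without array 2 or 3 (adjusted p = 0.140 and 0.122). These granzymes are near relatives of Gzmb, and whether their probes share signal was not resolved. On the other side, the ion pump gene Atp12a was toward liver at 0.75 ± 0.13, Rnf17 read 0.02 ± 0.02, and both probes of Mphosph8 were toward spleen, at -0.66 ± 0.06 and -0.70 ± 0.10. Beside Gzma, Gzmk, a granzyme of T cells, had 3 probes at -0.32 ± 0.16, -0.28 ± 0.13 and -0.02 ± 0.07. The first 2 passed (adjusted p = 0.0399 and 0.0470), and both calls were lost whichever array was left out. The next gene, Esm1, an endothelial proteoglycan gene, read -3.16 ± 0.49, and Hspb3 after it -0.03 ± 0.25. On the other side, Plpp1, a lipid phosphatase gene, passed toward spleen on 2 of 3 probes, at -0.91 ± 0.10 and -0.44 ± 0.15, with the third at 0.30 ± 0.24. The second of these calls was lost without array 2 (adjusted p = 0.0620). Ddx4 read 0.09 ± 0.13 and the probes of Il6st 0.07 and -0.05, none of them past the test.

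Around Prf1, Pcbd1, a cofactor-recycling enzyme gene, was toward liver at 2.84 ± 0.10, as were Tbata at 0.46 ± 0.09 and Nodal at 0.68 ± 0.35. Of 2 probes of Sar1a, a vesicle-coat GTPase gene, 1 was toward spleen at -2.25 ± 0.14 and the other read 0.07 ± 0.10. Pldi at 0.22 ± 0.02 and Pald1 at 0.00 ± 0.35 did not pass. Around Nkg7, Zfp788 was toward spleen at -0.85 ± 0.14 and Etfb, an electron transfer flavoprotein gene, toward liver at 2.20 ± 0.19. The other 4 genes there, Vmn2r61 (-0.55 ± 0.84), 4933421I07Rik (-0.24 ± 0.17), Cldnd2 (-0.27 ± 0.14) and 4931406B18Rik (-0.21 ± 0.37), did not pass.

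**Figure D4:**
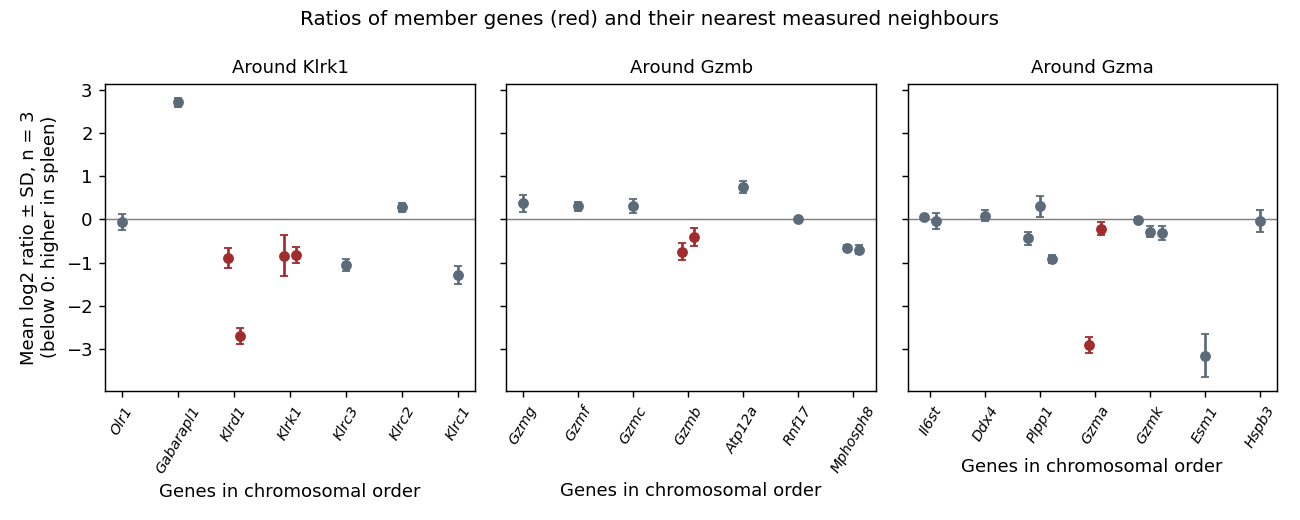
Mean log2 ratio ± SD (n = 3 arrays) of each probe of Klrk1, Gzmb and Gzma and of the 3 nearest measured genes on either side, in chromosomal order; member genes are red. Klrc1 and Klrc3 lie on the spleen side with Klrd1 and Klrk1, while Gzmc, Gzmf and Gzmg lie slightly above 0 next to Gzmb.

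The partners of the receptors were higher in spleen on part of their probes. For Hcst, the DAP10 adaptor of NKG2D, 1 of 3 probes passed, at -1.23 ± 0.18 (adjusted p = 0.000329), and the others read -0.20 and 0.02. For Tyrobp, DAP12, both probes passed, at -1.31 ± 0.06 and -0.56 ± 0.31, the second not without array 1 or array 2 (adjusted p = 0.0683 and 0.0863). The counts for gene lists that follow stand beside 26.7% of all probes toward spleen and 23.5% toward liver. Toward spleen, 21.5%, 20.8% and 23.6% of all probes passed without array 1, 2 and 3, and 18.6% with an exact 0 kept as a ratio of 0. Of the 36 probes of receptor adaptors and NK signalling, 19 passed toward spleen and 1 toward liver, with a median of -0.40. The largest were Sh2d1a (SAP) at -2.74 ± 0.28, Lcp2 (SLP-76) at -2.36 ± 0.41 and Lat at -2.14 ± 0.37, signalling adaptors that T cells also use. Further probes read -1.60 ± 0.24 for Sh2d1a, -1.79 ± 0.12 for Lcp2 and -0.79 ± 0.48 for Lat, all past the test, while the remaining Lat probe read 0.10 ± 0.09. The kinase Zap70 was the one toward liver, at 0.54 ± 0.04, and the count toward liver was 2 without array 2.

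Among ligands of NK receptors, 4 of 14 probes passed toward spleen and 3 toward liver, with a median of -0.09. Without array 2 these counts were 2 and 1, without array 1 they were 3 and 0, and without array 3 they were 5 and 0. The Qa-1 gene H2-T23 read -1.55 ± 0.21 on 1 probe (adjusted p = 0.000185) and -0.11 ± 0.10 on the other. Cd48, a ligand of the receptor 2B4 that many leukocytes carry, was at -2.37 ± 0.72. Clec2i, a ligand gene of the NK gene complex, was at -0.48 ± 0.17, a call lost without array 2 (adjusted p = 0.0569). Toward liver, the adhesion ligand Pvr was at 0.44 ± 0.21 on 1 probe and -0.06 ± 0.21 on the other, and the class I light chain B2m at 0.27 ± 0.03. The Pvr call was lost without array 1 or array 3, and that of B2m whichever array was left out. Of the listed NKG2D ligand genes, only Ulbp1 and Raet1d had a probe with 1 symbol. Both stood near 0, Ulbp1 at 0.31 ± 0.05 and Raet1d at -0.04 ± 0.26. The Ulbp1 call (adjusted p = 0.0227) was lost whichever array was left out.

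Of 30 probes of other NK receptors, 11 passed toward spleen and 5 toward liver, with a median of -0.22. None of these 5 passed once an array was left out, whichever it was, and 1 probe passed toward liver with each array centred on its median and 2 with an exact 0 kept as a ratio of 0. Crtam, an adhesion receptor of activated killer cells, was at -1.77 ± 0.48, the Ly49 receptor Klra7 at -1.56 ± 0.45 and the activating receptor Ncr1 (NKp46) at -1.35 ± 0.41. Another Ncr1 probe read 0.31 ± 0.18 and was one of the 5, with the Ly49 genes Klra6 at 0.33 ± 0.11 and Klra9 at 0.30 ± 0.14. A second Klra6 probe read 0.26 ± 0.11 and did not pass. Several Klra genes are near-identical copies, and their probes may share signal.

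Among other granule contents, of 23 probes, 5 passed toward spleen and 8 toward liver, with a median of -0.02. Toward spleen the count was 1 without array 1, 2 without array 2, 2 without array 3 and 2 with an exact 0 kept as a ratio of 0, and toward liver it was 5 without array 3. Serglycin (Srgn), the proteoglycan that packs granzymes and is made by many leukocytes, was at -2.19 ± 0.35. Ctsw, a cathepsin of killer cells, read -0.37 ± 0.15 on 1 probe, a call lost without array 1 or array 2, and -0.07 ± 0.32 on the other. Toward liver were the lysosomal membrane genes Lamp2 at 2.15 ± 0.09 and Lamp1 at 1.23 ± 0.20 and the lysosomal protease Ctsh at 1.07 ± 0.03 on 1 probe and 0.19 ± 0.13 on the other, genes that many cell types express. Ctsc, the peptidase that activates granzymes, read -0.28 on both probes. Only the first passed (adjusted p = 0.0361), a call lost whichever array was left out.

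Genes of granule release passed toward spleen on 9 of 24 probes and toward liver on 2, with a median of -0.22. The actin regulator Coro1a was at -2.07 ± 0.42 on 1 probe, while its other probe read 0.24 ± 0.28, above 0 on all 3 arrays, and did not pass. Was, another actin regulator, was at -1.57 ± 0.39 and the syntaxin Stx11 at -1.38 ± 0.26. Rab27a, the GTPase that docks granules, read -1.23 ± 0.07 on 1 probe and -0.22 ± 0.06 on the other, which did not pass. The membrane fusion gene Vamp8 was toward liver at 0.65 ± 0.08. Its relative Vamp7 was toward liver on 1 of 2 probes, at 0.54 ± 0.11, and the other read 0.63, -0.27 and -0.51 and did not pass. Of 18 probes of granzyme inhibitors and substrates, 6 passed toward spleen and 1 toward liver. Among these the chromatin protein gene Hmgb2 was at -2.88 ± 0.08, and the protease inhibitors Serpinb1a and Serpinb6a were at -2.86 ± 0.22 and -1.69 ± 0.41. Dffa, the inhibitor of the caspase-activated nuclease, was at 1.34 ± 0.15 on 1 probe and 0.30 ± 0.21, not past the test, on the other. Serpinb9, the inhibitor of granzyme B, read 0.00 ± 0.31.

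Of 21 probes of death ligands and killer-cell cytokines, 7 passed toward spleen and 2 toward liver, with a median of -0.10. The count toward spleen was 4 without array 1 and 4 with an exact 0 kept as a ratio of 0. Toward liver a single probe passed without array 2, without array 3, with an exact 0 kept and with each array centred. With probes averaged by gene, the spleen side held 3 calls among 13 genes and the liver side 1. The chemokine Ccl4 passed on 2 of 3 probes, at -1.80 ± 0.32 and -0.87 ± 0.13, with the third at -0.10 ± 0.06. The lymphotoxin chain Ltb was at -1.27 ± 0.46. The chemokine Ccl5 was at -1.26 ± 0.19 on 1 probe and 0.17 ± 0.12 on the other, which lay above 0 on every array and did not pass. The death receptor Fas was toward liver, at 0.53 ± 0.04 and 0.35 ± 0.20 on 2 probes, the second not past the test without array 2 or array 3. Fas ligand (Fasl) read 0.08 ± 0.22 and did not pass.

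Cytokines that act on NK cells and their receptors had 35 probes, of which 16 passed toward spleen and 1 toward liver, with a median of -0.18. The count toward liver was 2 without array 1 and 2 with an exact 0 kept as a ratio of 0. Il18r1, the interleukin-18 receptor, was at -3.58 ± 0.34 and -1.97 ± 0.52 on its 2 probes, and Il7r was at -2.82 ± 0.12. Flt3l, a growth factor for lymphoid and dendritic progenitors, was at -2.08 ± 0.39 and -0.92 ± 0.08, and 1 of the 2 Il2 probes was the one toward liver, at 0.62 ± 0.11, with the other at -0.04. The 2 probes of Il2rb, the shared receptor chain for interleukins 2 and 15, read -0.01 ± 0.16 and 0.11 ± 0.15 and did not pass.

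Transcription factors of NK and cytotoxic T cells passed toward spleen on 10 of 20 probes and toward liver on 3, with a median of -0.46. Eomes, which is restricted to few cell types and known for its role in NK cells, was toward spleen on both probes, at -1.11 ± 0.39 and -0.88 ± 0.52. Its relative Tbx21 (T-bet) read -0.29 ± 0.25 and did not pass. The largest toward spleen were Klf2 at -1.99 ± 0.15, Ets1 at -1.76 ± 0.26 (its other probe at -1.05 ± 0.33, also past the test) and Zeb2 at -1.36 ± 0.10. Toward liver, Nfil3 was at 1.01 ± 0.09 and Foxo1 at 0.64 ± 0.22. Elf4 averaged 1.60 ± 1.35 from readings of 2.97, 0.27 and 1.55, and did not pass without array 1 or array 3. The count toward liver was 2 without array 1, without array 3 and with an exact 0 kept as a ratio of 0.

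Homing receptors passed toward spleen on 10 of 24 probes and toward liver on 5, with a median of -0.15. The count toward liver was 2 without array 1, 3 without array 2 and 2 without array 3. Cd27 was at -3.07 ± 0.59 on 1 probe and 0.15 ± 0.13 on the other. The integrin chain Itgb2 was at -2.19 ± 0.36 and -1.21 ± 0.27, and Cxcr6, a chemokine receptor known for holding killer cells in liver, at -1.85 ± 0.24 on 1 probe and 0.20 ± 0.06 on the other. S1pr1 was toward liver on 1 of 2 probes, at 1.01 ± 0.36, and the other read -0.08 ± 0.27. Both probes of Ccr2 passed toward liver, at 0.39 ± 0.11 and 0.35 ± 0.14, the first not without array 2 or array 3 and the second not without array 1 or array 3. Cx3cr1 was toward liver at 0.38 ± 0.03, not without array 1, and its other probe read -0.06 ± 0.07 on the 2 arrays that measured it.

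**Figure D5:**
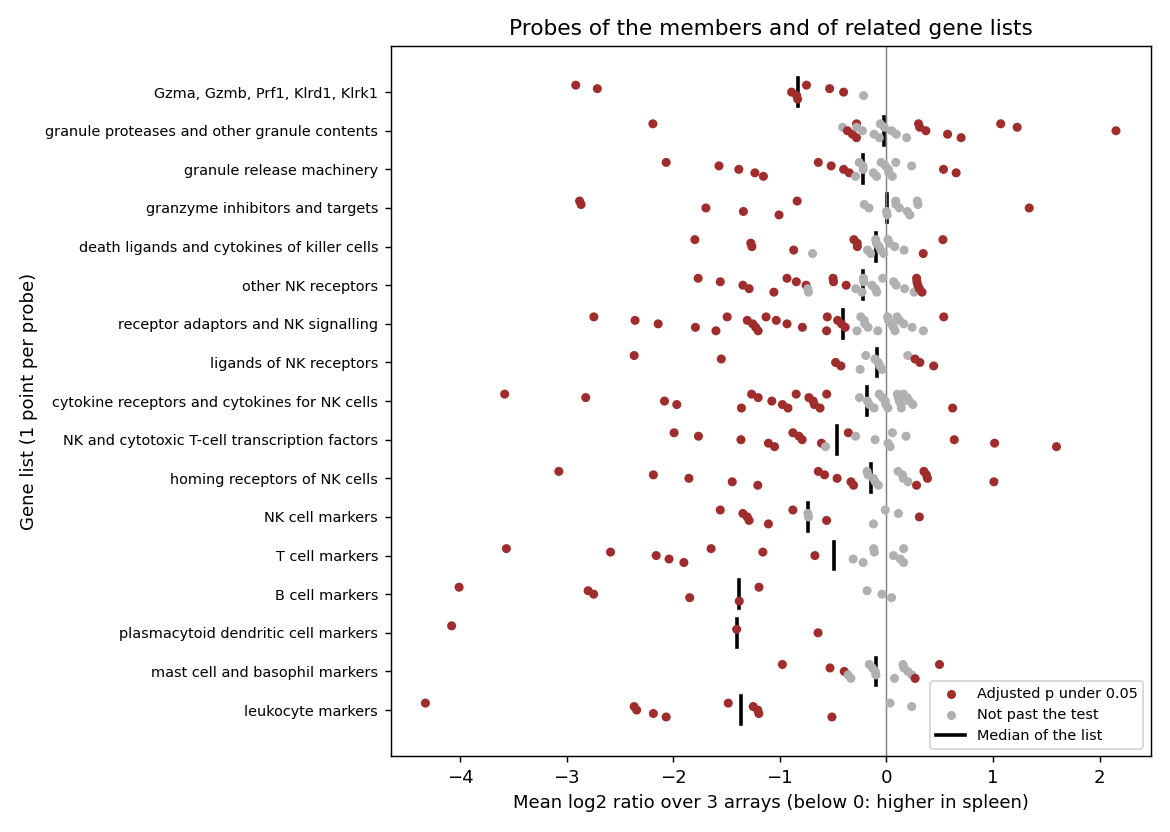
Mean log2 ratio over 3 arrays of every tested probe of the members and of related gene lists, with red points past the test, grey points not past it and a black bar at the median of the list. The member median of -0.83 lies below the medians of the 10 pathway lists, which run from -0.46 to 0.00, and above those of the B-cell, plasmacytoid dendritic and general leukocyte markers.

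The members are carried by several cell types. Markers of leukocytes in general, T cells, B cells and plasmacytoid dendritic cells were also higher in spleen on some or all of their probes. Those of mast cells and basophils mostly passed in neither direction. Of 12 probes of general leukocyte markers, 10 passed toward spleen and none toward liver, with a median of -1.37, led by 1 probe of Ptprc (CD45) at -4.33 ± 0.47. Another Ptprc probe read 0.03 ± 0.13 and did not pass, and Ptprc also belongs to the set of spleen genes from which the direction was read. Cd52 was at -2.34 ± 0.39. Of 16 T-cell probes, 8 passed toward spleen and none toward liver, with a median of -0.49. Cd8a, the coreceptor of cytotoxic T cells, was at -3.57 ± 0.22 and -0.67 ± 0.19, and Cd8b1 at -2.59 ± 0.41 on 1 probe and -0.22 ± 0.24 on the other. Cd28, a costimulatory receptor, was at -2.16 ± 0.32 and -1.16 ± 0.49. Cd3d at -2.04 ± 0.04, Cd3g at -1.90 ± 0.46 and 1 Cd5 probe at -1.64 ± 0.27 also passed. The other Cd5 probe read -0.23 on 2 arrays and did not enter the test. The remaining tested T-cell probes stood nearer to 0 and did not pass. Cd3e read 0.13 ± 0.09, the Cd4 probes -0.11, 0.16 and 0.16, the tested Cd6 probes -0.31 and -0.12, and the tested Cd247 probe 0.07. Another Cd247 probe read -2.99 on 2 arrays and did not enter the test. Of 13 NK-cell probes, the spleen side held 7 calls and the liver side 1, with a median of -0.74. The one on the liver side, Ncr1 probe 7589, was lost whichever array was left out, with each array centred and with an exact 0 kept as a ratio of 0. The NK marker Klrb1c (NK1.1) read -1.41, -0.74 and -0.05, and Klra1 read -1.58, -0.17 and -0.44, and neither passed. B-cell probes passed toward spleen in 6 of 9 cases with a median of -1.38. They were led by Btk at -4.01 ± 0.10 and the 2 probes of Cd72 at -2.80 ± 0.12 and -2.75 ± 0.50. Btk, Cd79a and Cd79b, all among these calls, also belong to the set of spleen genes from which the direction was read. Pax5 (-0.18 ± 0.28), Blk (-0.04 ± 0.47) and the tested Ms4a1 probe (0.05 ± 0.29) did not pass. Ms4a1 probes that did not enter the test read -2.66 on 2 arrays and -4.51 on 1. The 3 probes of plasmacytoid dendritic cell genes measured on all arrays, of Spib (-4.08 ± 0.15), Tcf4 (-1.40 ± 0.40) and Irf7 (-0.64 ± 0.05), passed toward spleen. Siglech and Bst2, the other listed genes, had no probe with 1 symbol, so these cells were read from 3 of 5 genes. Whether other cells gave the signal of these 3 genes was not tested. Mast-cell and basophil probes, whose cells can also make granzymes, passed toward spleen in 3 of 16 cases and toward liver in 2, with a median of -0.10. The growth factor receptor Kit was at -0.98 ± 0.14, and the mast-cell protease Cpa3 and the basophil protease Mcpt8 at -0.53 ± 0.33 and -0.40 ± 0.28. The Cpa3 call was lost without array 1 or array 2 and that of Mcpt8 without array 2 or array 3, and their other probes, at -0.36 ± 0.31 and -0.10 ± 0.16, did not pass. With an exact 0 kept as a ratio of 0, the counts were 1 toward spleen and 3 toward liver. The calls toward liver, of Cma1 at 0.50 ± 0.27 and 1 of 2 Tpsab1 probes at 0.27 ± 0.08, were both lost without array 1 or array 3. Since the table gives ratios only, the summed level of each marker list in each tissue is not known. The part of each cell type in the ratios of the members was not tested.

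The probes whose 3 readings lay closest to those of Gzma 4229 were probes of Ptpn18, Tspan32 and Cd83, with root mean square differences of 0.06, 0.07 and 0.10 on the log2 scale. Ptpn18 read -3.19, -2.81 and -2.90, Tspan32 -3.02, -2.71 and -2.88, and Cd83 -3.24, -2.76 and -2.73. This likeness is over 3 arrays of 1 contrast and says only that the ratios were of the same size.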

How the data were processed

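The deposited table gives 1 log2 ratio per probe and array. The sources used here state neither background correction and dye normalization nor log base and direction. Base 2 was taken from the values, since the highest over the 3 arrays is 6.64, the log2 of 100. An exact 0, listed for 1414, 1098 and 1137 probes on arrays 1, 2 and 3, was treated as missing. Of 16281 probes, 13738 had 1 gene symbol in the platform annotation, 52 several and 2491 none. Of the 13738, 13694 were found by Entrez number in the RefSeq table and no symbol changed. Each probe with 3 values was tested against 0 with limma 3.58.1 (R 4.3.3, intercept only, 3.38 prior degrees of freedom). Tables and figures used pandas 2.3.3 and matplotlib 3.10.9. The number of arrays limits the precision. The probe-pair test was added after seeing the data. Members and gene lists were chosen with earlier results of these data known. Named genes are all members, the 3 largest calls per list and direction (direction sets aside), the 3 nearest measured genes on either side of each member and the 3 probes most like Gzma 4229. Others were named after their values were seen, among them the Ctsc, Hcst, Tyrobp, Raet1d, Rab27a, Serpinb9, Fasl, Il2rb, Eomes, Tbx21, Klrb1c and Klra1 probes and further probes of named genes. The Cd3d, Cd3e, Cd3g, Cd4, Cd5, Cd6, Cd247, Pax5, Blk and Ms4a1 probes were also named this way. The gene-averaged fit follows an earlier processing of this table. Alternatives are in the closing section.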

Additional observations from a re-analysis of the deposited data

How the results depend on the processing

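The 8 member calls became 5 of 5 genes when probes were averaged by gene, 2 against a 2-fold difference (limma treat), 6 with an exact 0 kept as a ratio of 0, and 7 to 8 with 1 array left out. Over all probes, 7086 passed, 1443 against 2-fold and 5376 to 6080 with 1 array left out. Toward spleen, 21.5%, 20.8% and 23.6% of all probes passed without array 1, 2 and 3, against 26.7% with all arrays. For the 10 pathway lists together, 128 passed, 28 against 2-fold and 98 to 107 with 1 array left out. These are counts in either direction, beside 50.2% of all probes in the main fit, and are not read as particular to the lists. Against 2-fold, the Gzma 4229 and Klrd1 12253 calls held, and those of Gzmb 9044 (-0.75), Gzmb 11131 (-0.40), Prf1 15367 (-0.53), Klrd1 11157 (-0.89), Klrk1 1858 (-0.84) and Klrk1 9193 (-0.83) did not. With 0 kept as a ratio, the ratios of Gzmb 11131 (-0.40, adjusted p = 0.0757) and Klrk1 1858 (-0.84, adjusted p = 0.0790) no longer passed. Neither probe had an exact 0 of its own. With 1 array left out, Gzmb 11131 ranged from -0.48 to -0.28. The average of Gzma probes 4229 and 15428 was -1.56 and passed, while probe 15428 alone did not pass. The uncalled Klrk1 probe difference (probe 1858 minus 9193, -0.01) turned to 0.20 without array 2, and was -0.22 without array 3. Centring each array, bringing the arrays to 1 spread and robust moderation of variances changed no member call. Each ratio already pairs the tissues on its array, and no further replicate block applied. Nkg7, with values of both signs, averaged -0.28 over its 2 arrays and did not pass when probes with 2 values were tested (adjusted p = 0.407). Signal over background could not be judged from ratios, so a probe near 0 may be unexpressed or equal in both RNAs.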
